A study of Mus musculus with 36 samples.

Results

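The effect of the ∆Ig3-MuSK allele was examined in the tibialis anterior (TA), a fast muscle of the mouse hindlimb, in 18 of the 36 RNA-seq libraries of the series. These are all 9 WT TA and all 9 ∆Ig3-MuSK TA libraries, and every gene in the TA count table was considered. The other 18 libraries, from the soleus of the same genotypes, serve only for the test of whether a TA difference is different in that muscle. The mice were C57BL/6 males of 3 months, and the labels give the Musk allele as the difference between the groups. The numbers in the TA labels are also lower in every ∆Ig3-MuSK library than in any WT library. What these numbers mark is not given, so a difference that goes with them cannot be told apart from genotype. Each library came from 1 muscle of 1 animal. The allele was made by CRISPR-Cas9 deletion of Musk exons 6 and 7 in C57BL/6 mice, followed by backcrossing to the same strain. It is germline, so it is carried by all cells of the muscle and was present through development. The study gives the name ∆Ig3-MuSK to mice homozygous for the allele. The hour at which muscles were taken is not given in the sources used here.

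MuSK is a muscle-specific receptor tyrosine kinase. At the neuromuscular junction it is activated by agrin through LRP4 and directs the clustering of acetylcholine receptors. Through an immunoglobulin-like domain named Ig3 it also binds bone morphogenetic proteins (BMPs) and acts as their co-receptor, and the ∆Ig3 form lacks that domain. BMP receptors signal through SMAD1/5/8, and in muscle this pathway is known to act on fiber mass.

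The exons that the methods name as deleted are shown because the allele is what distinguishes the groups. They are exons 6 and 7 of the 14-exon transcript ENSMUST00000081919, on the plus strand at chr4:58333565-58344318 of GRCm38 with the intron between them. Both are coding exons, of 125 and 167 bases. In the transcript sequence of GENCODE vM21 the 292 bases of these exons are in capitals, with 4 bases of exon 5 before and of exon 8 after them in lower case. The 292 bases are not a multiple of 3, and the reading frame of the transcript made from the allele was not examined here.
Musk exons 6 and 7: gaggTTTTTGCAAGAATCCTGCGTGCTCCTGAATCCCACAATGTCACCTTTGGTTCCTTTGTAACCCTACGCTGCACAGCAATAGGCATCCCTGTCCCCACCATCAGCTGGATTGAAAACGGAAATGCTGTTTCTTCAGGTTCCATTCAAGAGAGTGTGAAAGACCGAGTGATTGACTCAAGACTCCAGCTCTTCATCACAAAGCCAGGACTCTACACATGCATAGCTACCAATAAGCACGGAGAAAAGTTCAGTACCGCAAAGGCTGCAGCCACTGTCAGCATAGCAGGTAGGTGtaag

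Total counts were 49287472 to 75091437 per WT library and 56584208 to 78660422 per ∆Ig3-MuSK library. The labelled tissue was visible in its markers: Acta1, Ckm, Ttn and Des summed to 33827 to 40406 CPM (counts scaled to library size) in WT and 35416 to 44837 CPM in ∆Ig3-MuSK. Of 10 neuronal markers, 7 passed the filter on low counts, and Slc5a7 had no count in any library. WT replicates 3 and 5 stood apart from the other 16 libraries on PC1, which held 34.2% of the variance of log2 CPM, with scores of 50.6 and 73.9. The other 7 WT libraries lay between −12.02 and 14.9, ∆Ig3-MuSK replicate 3 at 15.4, and the other 8 ∆Ig3-MuSK libraries between −21.4 and −6.79. Because WT replicates 3 and 5 stood apart, many of the results below, but not all, are also given without them. That choice was made after seeing the data.

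Musk, the edited gene, had lower counts in the mutant TA, and the groups overlapped. Its level in WT replicates 1 to 9 was 5.38, 3.68, 3.61, 3.24, 2.74, 3.66, 5.26, 4.47 and 4.78 CPM. In ∆Ig3-MuSK it was 3.01, 2.51, 3.83, 2.98, 3.03, 3.02, 2.81, 2.85 and 2.67 CPM. Thus 4 WT libraries lay above every mutant library and 2 mutant libraries below every WT library. The log2 fold change was −0.46 (standard error 0.12), with an adjusted p of 0.135 in edgeR's quasi-likelihood test, which misses the threshold used for a call. The counts are summed over all exons of Musk, so they do not isolate the deleted exons, and the gene-level count cannot serve as a check of the allele. The difference was −0.55 without WT replicates 3 and 5, and the adjusted p ranged from 0.00176 to 0.161 over 15 alternative fits. Within 5 Mb on either side of Musk, 61 genes were tested. Of these, 6 had higher and 4 lower values by an unadjusted p under 0.05, beside 12.2% and 12% of all genes. None was called.

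Of 20075 genes tested, 3 rose and 0 fell in the ∆Ig3-MuSK TA at a Benjamini-Hochberg adjusted p under 0.05 and at least a 1.2-fold change (0.0149% and 0.0%; edgeR quasi-likelihood). They are Dbp, Sphk2 and Gstt2. At an unadjusted p under 0.05, 2440 genes (12.2%) were higher and 2402 (12%) lower. In either direction 24.1% passed that limit, and 0.169% of genes had an adjusted p under 0.10 with the same fold. The number called depended on the test. DESeq2 called 164 higher (0.817%) and 61 lower (0.304%), or 1.12% in all, and with its own filter of 0.5 CPM 172 (0.933%) and 66 (0.358%), or 1.29%. The limma-voom fit with quality weights called 120 (0.598%) and 30 (0.149%), or 0.747%, and a single fit over the 36 libraries 485 (2.33%) and 207 (0.993%), or 3.32%. DESeq2, limma-voom and the fit over 36 libraries had 108 called genes in common. When WT replicates 3 and 5 were left out, the unadjusted counts were 1422 higher (7.0%) and 771 lower (3.79%) of 20325, 10.8% in all, and the called genes were Dbp, Sphk2, Gstt2 and Rhebl1. DESeq2 then called 35 higher (0.172%) and 15 lower (0.0738%), or 0.246%. The libraries of the genotypes did not overlap at all for 2 genes that were higher in ∆Ig3-MuSK and 2 that were lower (0.00996% each).

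**Figure D1:**
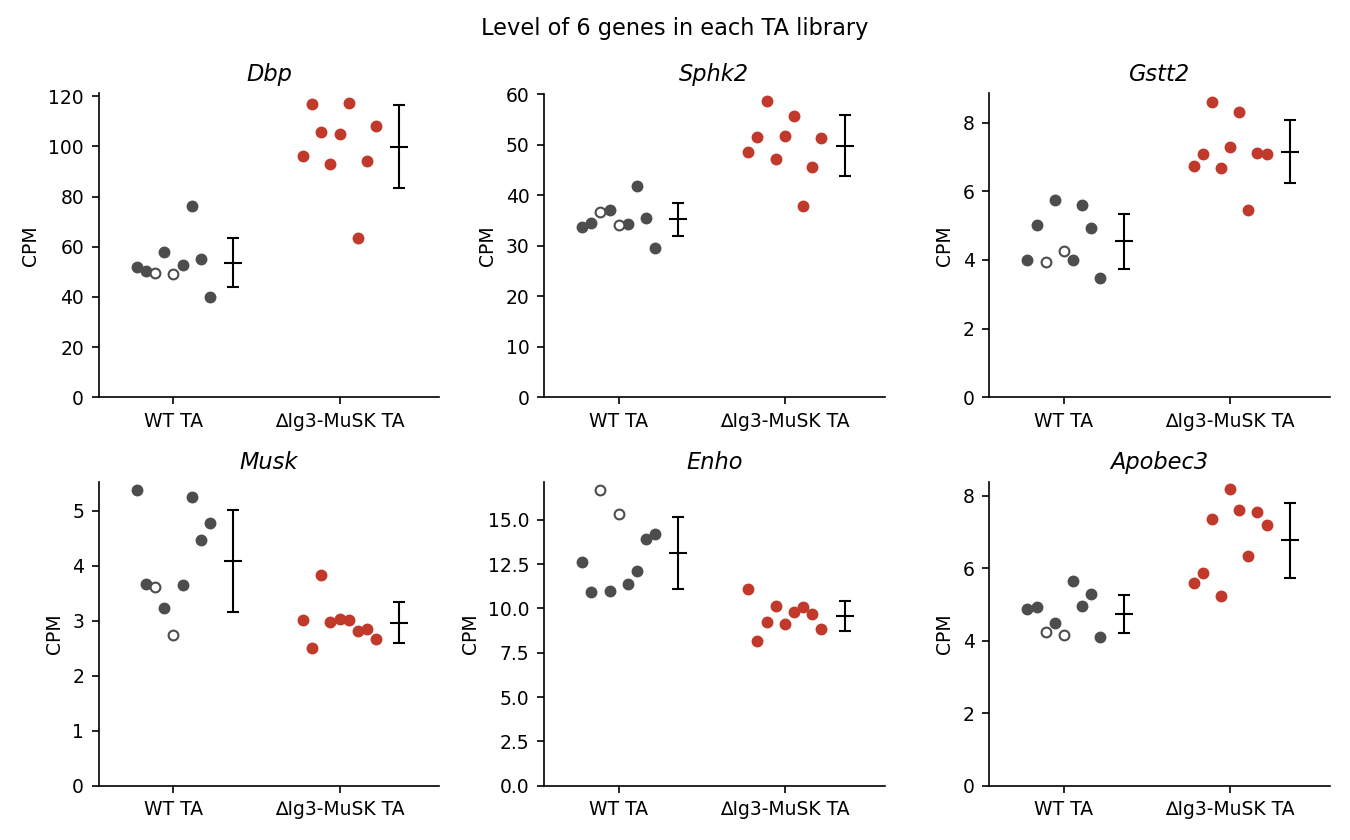
Level of 6 genes in CPM in each TA library, WT in grey and ∆Ig3-MuSK in red, with mean ± SD (n = 9) beside each group; open circles are WT replicates 3 and 5. For Dbp, Sphk2 and Gstt2 all but 1 mutant library lies above every WT library, and for Enho all but 1 lies below.

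Dbp encodes a PAR bZIP transcription factor whose expression is a strong output of the circadian clock. In WT replicates 1 to 9 it was at 52.1, 50.3, 49.7, 57.8, 49.2, 52.8, 76.1, 55.3 and 39.9 CPM. In ∆Ig3-MuSK it was at 96.2, 117, 106, 93.0, 105, 117, 63.3, 94.2 and 108 CPM. The only overlap came from the replicates numbered 7, the highest WT and the lowest mutant library. Dbp rose 1.86-fold, with a log2 fold change of 0.90 (standard error 0.11) and an adjusted p of 0.0012 by edgeR. Its log2 fold change was 0.87 without WT replicates 3 and 5 (adjusted p = 0.00936 by edgeR).

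Sphk2 encodes sphingosine kinase 2, which phosphorylates sphingosine. It lies next to Dbp on chromosome 7 (45709467 to 45718002, minus strand) and 539 bp of its exons overlap those of Dbp (45705088 to 45710203, plus strand). The libraries carry no strand, so reads from this stretch cannot be assigned to either gene. In WT replicates 1 to 9 Sphk2 was at 33.7, 34.5, 36.7, 37.1, 34.2, 34.4, 41.9, 35.5 and 29.7 CPM. In ∆Ig3-MuSK it was at 48.5, 51.5, 58.7, 47.3, 51.7, 55.8, 37.9, 45.7 and 51.4 CPM. As for Dbp, only the replicates numbered 7 overlapped. Sphk2 rose 1.41-fold (log2 fold change 0.50, standard error 0.07, adjusted p = 0.00878 by edgeR). Of the 14 tested genes of sphingosine metabolism and signaling, Sphk2 alone was called, and 3 had an unadjusted p under 0.05 with a higher (21.4%) and 1 with a lower mean (7.14%), beside 12.2% and 12% of all genes. The others of these were Sgpl1, the sphingosine-1-phosphate lyase (log2 fold change 0.16), the ceramidase Acer2 (0.45) and the phosphatase Sgpp1 (−0.14). Without WT replicates 3 and 5 the list had 3 higher and 0 lower, beside 7.0% and 3.79% of all genes.

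Gstt2 encodes a theta-class glutathione S-transferase, an enzyme of detoxification. Its WT levels were 3.99, 5.03, 3.93, 5.74, 4.28, 4.01, 5.59, 4.93 and 3.46 CPM, and its mutant levels 6.74, 7.10, 8.60, 6.69, 7.30, 8.31, 5.46, 7.12 and 7.10 CPM. Mutant replicate 7 was again the lowest of its group and the only one to reach into the WT range. Gstt2 rose 1.57-fold (log2 fold change 0.66, standard error 0.10, adjusted p = 0.0109 by edgeR), on 239 to 561 counts per library. It was called in 13 of 15 alternative fits, and with 1 surrogate variable its adjusted p was 0.052 by edgeR. Its theta-class relatives did not reach a call. Gstt3 had a log2 fold change of 0.24 (adjusted p = 0.149 by edgeR) and Gstt1 of 0.01 (adjusted p = 0.961 by edgeR). Of 24 tested genes of glutathione conjugation and synthesis, 3 were higher and 6 were lower by an unadjusted p under 0.05, with a median log2 fold change of −0.08. These are 12.5% and 25%, beside 12.2% and 12% of all genes. Without WT replicates 3 and 5 these counts were 3 and 1, beside 7.0% and 3.79% of all genes, and the median was −0.00.

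The circadian clock of each cell is a loop in which BMAL1 (Arntl) with CLOCK or NPAS2 activates the Per and Cry genes through E-box sequences, and PER and CRY proteins repress that activation. A second loop runs through the nuclear receptors REV-ERB (Nr1d1, Nr1d2) and ROR, and the output factors DBP, TEF and HLF act on D-box sequences. Skeletal muscle has a robust clock of this kind, whose RNAs rise and fall through the day. Of 16 core clock genes tested, 8 had higher and 3 lower values at an unadjusted p under 0.05 and 0 were called by edgeR. DESeq2 and limma-voom each called 4 of them higher (Per2, Per3, Cry2, Ciart) and 2 lower (Arntl, Npas2), and the fit over 36 libraries also Rora. Of 9 clock output genes, 5 were higher and 0 lower and Dbp was called by edgeR. DESeq2 called Hlf and Usp2 as well, and limma-voom Usp2. These shares (50.0% and 18.8%, 55.6% and 0.0%) stand beside 12.2% and 12% of all genes. Without WT replicates 3 and 5 the counts were the same, 8 and 3 of 16 and 5 and 0 of 9, where 7.0% and 3.79% of all genes passed.

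The promoters of 3 clock genes follow, chosen as Dbp, the called gene, and the genes of the list with the most E-boxes or D-boxes in the 250 bases before the start site. They are from RefSeq (GRCm38.p6), 5′ to 3′ on the strand of the gene, with matches on either strand in capitals. Ciart is on the minus strand at chr3:95882229-95882478, Per3 on the minus strand at chr4:151044666-151044915 and Dbp on the plus strand at chr7:45704997-45705246.
Ciart: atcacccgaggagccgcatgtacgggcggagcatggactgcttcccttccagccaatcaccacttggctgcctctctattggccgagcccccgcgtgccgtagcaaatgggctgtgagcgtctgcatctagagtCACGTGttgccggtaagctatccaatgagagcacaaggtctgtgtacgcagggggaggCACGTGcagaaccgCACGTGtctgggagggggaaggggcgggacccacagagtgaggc
Per3: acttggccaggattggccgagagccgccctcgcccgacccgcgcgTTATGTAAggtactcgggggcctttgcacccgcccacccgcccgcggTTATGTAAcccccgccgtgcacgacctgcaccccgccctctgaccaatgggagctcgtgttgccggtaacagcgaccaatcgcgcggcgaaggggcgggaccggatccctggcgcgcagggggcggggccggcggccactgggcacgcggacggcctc
Dbp: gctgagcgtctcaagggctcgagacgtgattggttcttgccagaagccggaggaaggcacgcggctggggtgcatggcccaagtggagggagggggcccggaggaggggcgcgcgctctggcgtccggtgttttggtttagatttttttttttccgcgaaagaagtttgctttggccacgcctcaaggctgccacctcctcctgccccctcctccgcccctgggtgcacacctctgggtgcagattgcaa

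The capitals in Ciart are 3 copies of the E-box CACGTG, and those in Per3 are 2 copies of the D-box TTATGTAA. Dbp held no match in this window. The letters searched were CACGTG for the E-box, TTATGTAA or TTACGTAA for the D-box, TAGGTCA or TGGGTCA for REV-ERB and ROR, and TGACGTCA for the cAMP response element. Among 19 of the 25 clock genes that matched the promoter table, 5 had an E-box, 1 a D-box, 1 a REV-ERB/ROR element and 1 a cAMP response element. Over all 32851 promoters of the table the shares were 6.02%, 0.931%, 5.38% and 1.55%. These are shares of single promoters, whereas a clock gene with more than 1 promoter was counted if any of them matched, so the units are unlike.

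The Per genes encode the period repressors. Per2 was at 5.82, 3.46, 2.61, 2.91, 1.77, 6.67, 9.83, 6.89 and 5.52 CPM in WT replicates 1 to 9. In ∆Ig3-MuSK it was at 8.64, 10.3, 8.11, 13.8, 25.3, 23.1, 9.10, 11.3 and 13.4 CPM. Mutant replicates 5 and 6 were the highest by far, and WT replicate 7 alone reached the mutant range. The log2 fold change of Per2 was 1.44 (standard error 0.29, adjusted p = 0.0788 by edgeR) and 1.23 without WT replicates 3 and 5.

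Per3 ran from 13.6 to 42.0 CPM in WT (median 23.1) and from 30.5 to 57.1 CPM in ∆Ig3-MuSK (median 40.1), again with replicate 7 the highest WT and the lowest mutant library. Its log2 fold change was 0.81 (standard error 0.17, adjusted p = 0.0877 by edgeR). Per1 was the most scattered of the family, at 9.36 to 59.5 CPM in WT and 20.3 to 115 CPM in ∆Ig3-MuSK, with a log2 difference of 0.98 (standard error 0.33, adjusted p = 0.155 by edgeR). WT replicate 6, at 59.5 CPM, exceeded 7 of the 9 mutant libraries.

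Cry2, a cryptochrome repressor, was at 26.1, 26.6, 19.0, 22.1, 17.9, 26.5, 25.9, 25.2 and 23.9 CPM in WT and 35.4, 36.1, 28.4, 33.7, 42.1, 45.1, 25.6, 32.6 and 33.0 CPM in ∆Ig3-MuSK. All mutant libraries but replicate 7 lay above every WT library. The log2 fold change was 0.55 (standard error 0.10, adjusted p = 0.0606 by edgeR), whereas that of Cry1 was 0.01 (standard error 0.07). D930015M05Rik, a transcript whose exons overlap those of Cry2 by 295 bp on the opposite strand and which is named here after its values were seen, had a log2 fold change of 0.79 (adjusted p = 0.0711 by edgeR).

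Ciart encodes a repressor of BMAL1-CLOCK. Its WT levels were 2.01, 1.92, 1.17, 2.52, 2.68, 2.96, 3.03, 2.45 and 1.82 CPM, and its mutant levels 3.58, 4.29, 4.14, 4.13, 8.92, 10.3, 2.92, 4.48 and 5.97 CPM. Mutant replicates 5 and 6 were the highest, as for Per2, and mutant replicate 7 fell inside the WT range. The log2 fold change was 1.25 (standard error 0.23, adjusted p = 0.0606 by edgeR).

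The activators of the loop lay the other way. Arntl was at 19.1, 17.1, 17.7, 18.8, 16.2, 19.5, 14.5, 15.5 and 15.02 CPM in WT and 18.2, 10.04, 9.88, 11.9, 7.37, 7.27, 14.2, 13.5 and 11.3 CPM in ∆Ig3-MuSK. Mutant replicate 1 alone was inside the WT range, and replicates 5 and 6 were the lowest. The log2 fold changes of Arntl, Npas2 and Clock were −0.57 (standard error 0.14), −0.76 (0.21) and −0.18 (0.08), with adjusted p-values of 0.135, 0.144 and 0.187 by edgeR. For Npas2 the mutant libraries ran from 0.415 to 1.65 CPM and the WT libraries from 1.198 to 2.69 CPM, and replicates 5 and 6 were again the lowest.

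Among the remaining clock genes, Nr1d2 differed by 0.25 on the log2 scale (standard error 0.06, adjusted p = 0.135 by edgeR) and its relative Nr1d1 by 0.08 (standard error 0.10, adjusted p = 0.629 by edgeR). The PAR bZIP relatives of Dbp, Hlf and Tef, had 0.48 and 0.21, and the deubiquitinase Usp2 had 0.55. Mutant replicates 5 and 6 held the 2 highest mutant values of Per1, Per2, Per3, Cry2, Ciart, Usp2, Hlf, Tef and Nr1d2 except that for Nr1d2 replicate 2 (116.1 CPM) came between replicates 6 (123.7 CPM) and 5 (115.7 CPM). The hour of collection is not given, so time of day and genotype cannot be told apart in these clock values.

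**Figure D2:**
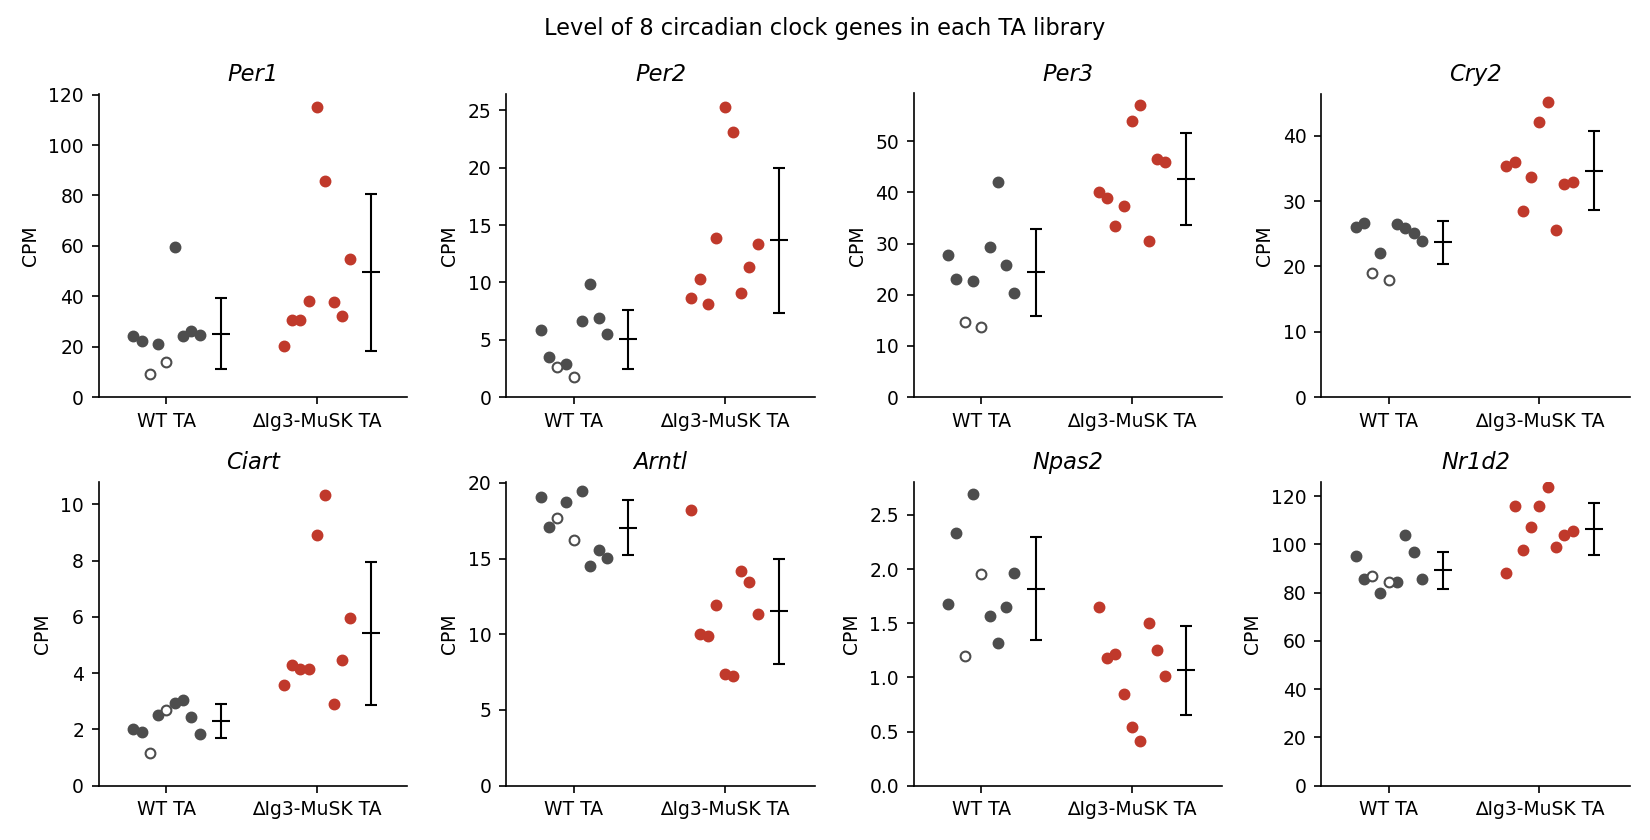
Level of 8 clock genes in CPM in each TA library, WT in grey and ∆Ig3-MuSK in red, ordered within a group by replicate number, with mean ± SD (n = 9); open circles are WT replicates 3 and 5. Mutant replicates 5 and 6 are the 2 highest libraries for Per1, Per2, Per3, Cry2 and Ciart and the 2 lowest for Arntl and Npas2.

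Enho encodes adropin, a secreted peptide linked to energy metabolism. It was at 12.6, 10.9, 16.7, 11.01, 15.3, 11.4, 12.1, 13.9 and 14.2 CPM in WT and 11.1, 8.14, 9.23, 10.1, 9.13, 9.82, 10.1, 9.67 and 8.84 CPM in ∆Ig3-MuSK. Mutant replicate 1 was the only mutant library within the WT range, while WT replicates 3 and 5 were the 2 highest. The log2 fold change was −0.46 (standard error 0.08, adjusted p = 0.0606 by edgeR), and −0.36 without those libraries (adjusted p = 0.111 by edgeR). Enho was past the call limits in 9 of 15 alternative fits.

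Of the other genes with the smallest p among those higher by at least 1.2-fold, Apobec3, a cytidine deaminase that restricts retroviruses, ran from 4.09 to 5.64 CPM in WT and from 5.25 to 8.18 CPM in ∆Ig3-MuSK. Its log2 fold change was 0.51 (standard error 0.09, adjusted p = 0.0578 by edgeR). Rhebl1, a small GTPase related to the mTORC1 activator RHEB, had a log2 fold change of 0.50 (adjusted p = 0.0788 by edgeR), and was called without WT replicates 3 and 5 (0.56, adjusted p = 0.0314 by edgeR). Rhebl1 shares exon sequence with Dhh on the same strand, and reads from that stretch cannot be assigned to either gene. The cell-cycle phosphatase Cdc25b had 0.47 (adjusted p = 0.0788 by edgeR), with 1.18 to 2.07 CPM in WT and 2.06 to 2.60 CPM in ∆Ig3-MuSK. Arhgap6, a GTPase-activating protein, had 0.37 and the pseudogene Btnl7-ps 0.92, on as few as 26 counts in a library.

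On the lower side, Cyp51 and Msmo1, enzymes of cholesterol synthesis after lanosterol, had log2 fold changes of −0.39 and −0.46 (adjusted p = 0.0788 and 0.125 by edgeR). Cyp51 was at 3.76 to 5.10 CPM in WT and 2.86 to 3.78 CPM in ∆Ig3-MuSK, with 8 mutant libraries below every WT library. Foxo6os, an antisense transcript of Foxo6, had −0.46 (adjusted p = 0.0710 by edgeR). Kif11, a mitotic kinesin, did not overlap between the groups, at 0.39 to 0.93 CPM in WT and 0.292 to 0.373 CPM in ∆Ig3-MuSK (log2 fold change −0.72, adjusted p = 0.130 by edgeR), with 18 to 56 counts per library. The others were Dhrs7b, an oxidoreductase (−0.32), Zfp385b, a zinc finger protein (−0.39), the deubiquitinase Otub2 (−0.30), Nrep (−0.31) and the filamin-binding Rflnb (−0.45), with adjusted p-values from 0.110 to 0.130 by edgeR.

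The exonic length of a gene moved with the genotype difference across the whole table. Genes were put in 10 bins of equal size by exonic length. Among the shortest (36 to 579 bp) the median log2 fold change was −0.10, and among the longest (8777 to 123179 bp) it was 0.13. In the longest bin 33.0% of genes were above and 2.35% below WT at an unadjusted p under 0.05, and in the shortest 5.99% and 16.4%. With WT replicates 3 and 5 set aside, the medians were −0.03 and 0.07, and with a smooth of each library on length and GC content as an offset they were −0.03 and 0.00. That offset takes a trend with length out of each library by design, so the small medians follow from the fit itself. The length contrast of a library, the median of the longest bin minus that of the shortest, was −0.50 and −0.64 in WT replicates 3 and 5 and −0.17 to 0.12 in the other WT libraries. It was −0.24 in ∆Ig3-MuSK replicate 3 and 0.07 to 0.20 in the other mutant libraries. The genotypes differed in it with p = 0.0331 (exact permutation test, 2-sided; 0.314 after adjustment over 19 library measures) and, without WT replicates 3 and 5, with p = 0.136 (exact permutation test). The part of gene length in the list differences that follow was not tested beyond the fits given beside them.

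**Figure D3:**
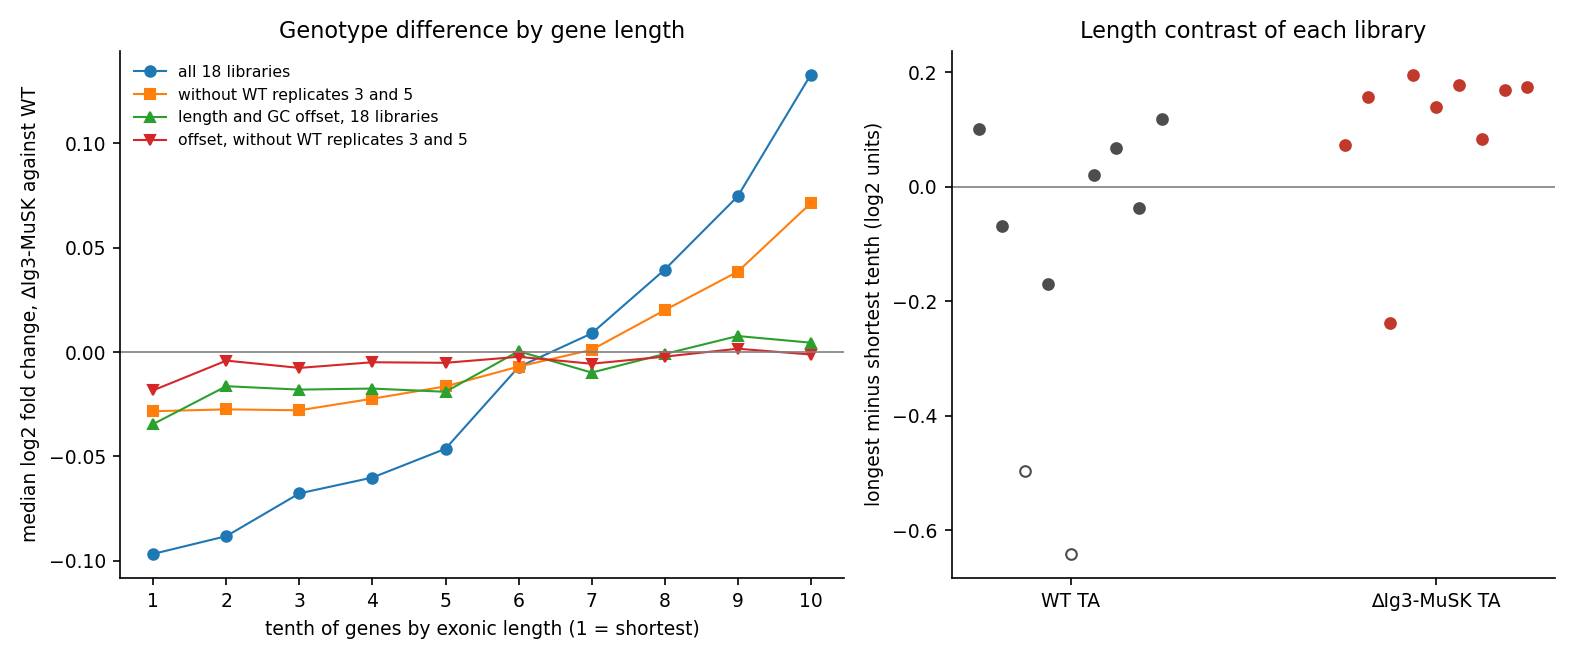
Left, median log2 fold change (∆Ig3-MuSK against WT) in 10 bins of genes by exonic length, in 4 fits; right, length contrast of each library in log2 units, open circles being WT replicates 3 and 5. The median runs from −0.10 to 0.13 with all 18 libraries and from −0.03 to 0.07 without those. It stays between −0.03 and 0.01 with the offset, which takes out a trend with length by design.

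Nuclear genes for mitochondrial proteins were lower in mean with few exceptions. All 78 tested genes of the mitochondrial ribosome, which translates the mitochondrial genome, had a lower mean in ∆Ig3-MuSK, 60 of them at an unadjusted p under 0.05 (76.9%), with a median log2 fold change of −0.20. Of 37 nuclear genes of complex I, which passes electrons from NADH to ubiquinone, 33 were lower (89.2%, median −0.23). Of 29 genes of complexes II to IV it was 20 (69.0%, median −0.20), and of 19 of the ATP synthase 13 (68.4%, median −0.23). None of these genes was called by edgeR in the TA libraries or higher at that limit, where 12% of all genes were lower, and the median of all genes was −0.00.

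DESeq2 and limma-voom called 0 of them as well, beside 0.304% and 0.149% of all genes called lower. The fit over 36 libraries called 10 of the mitochondrial ribosome, 7 of complex I, 1 of complexes II to IV and 0 of the ATP synthase lower. That fit called 0.993% of all genes lower.

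Mrps31, a mitochondrial ribosome subunit, was at 13.7, 17.1, 18.3, 16.8, 23.8, 17.1, 14.0, 15.2 and 13.8 CPM in WT and 12.6, 12.97, 15.8, 13.6, 12.6, 13.5, 13.7, 13.5 and 12.98 CPM in ∆Ig3-MuSK. WT replicate 5 was the highest library and WT replicate 3 the next, and several WT libraries lay among the mutants. Its log2 fold change was −0.30 (standard error 0.09, adjusted p = 0.145 by edgeR) and −0.19 without those libraries. Cycs, cytochrome c, had −0.36 (standard error 0.11) and −0.20 without them.

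Without WT replicates 3 and 5, the counts lower at an unadjusted p under 0.05 were 14 of 78 for the mitochondrial ribosome, 6 of 37 for complex I, 1 of 29 for complexes II to IV and 2 of 19 for the ATP synthase, where 3.79% of all genes were lower. The medians were then −0.09, −0.11, −0.09 and −0.08. With the length and GC offset they were −0.16, −0.18, −0.15 and −0.17, with 50, 29, 11 and 12 genes lower, where 11.4% of all genes were lower and 10.2% higher (21.6% together). With 1 surrogate variable they were −0.02, −0.02, −0.01 and −0.00, where 3.08% of all genes were higher and 3.48% lower (6.56% together). The median exonic length of these lists ran from 1237 to 2394 bp, beside 3337 bp for all genes. The 13 genes encoded in the mitochondrial genome had a median of −0.12 with none past that limit, and their share of all counts was 12.1% to 18.2% in WT and 11.5% to 16.8% in ∆Ig3-MuSK (exact permutation test, p = 0.421).

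Of 20 tested genes of the tricarboxylic acid cycle 6 were lower and 0 higher, of 29 of fatty acid oxidation 2 and 0, and of 26 of glycolysis 5 lower and 2 higher. The shares lower were 30.0%, 6.90% and 19.2%, beside 12% of all genes. With WT replicates 3 and 5 left out, 3, 0 and 0 were lower and none was higher, beside 3.79% and 7.0% of all genes. Their medians were −0.11, −0.08 and −0.12, and −0.06, −0.05 and −0.03 without WT replicates 3 and 5. Hk2, the hexokinase of muscle, was among the higher genes of glycolysis (log2 fold change 0.25), and Ldha and Pgk1 among the lower (−0.23 each).

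With all 18 libraries, genes of protein synthesis and turnover had more members lower than higher, where 12% of all genes were lower and 12.2% higher. Of 78 cytosolic ribosomal protein genes 35 were lower and 0 higher (44.9%, median −0.19). Leaving out WT replicates 3 and 5, it was 3 of 78, with a median of −0.06, near the 3.79% of all genes then lower. With 1 surrogate variable the median was 0.02. Translation factors had 16 lower and 4 higher of 63, ribosome biogenesis genes 13 and 2 of 54 and proteasome genes 12 and 1 of 45. Without WT replicates 3 and 5 these were 4 and 2, 1 and 1, and 3 and 1, where 3.79% of all genes were lower and 7.0% higher. Chaperones had 43 lower and 3 higher of 114 (median −0.11), and 13 and 2 without WT replicates 3 and 5 (median −0.05). Hspa8, the constitutive HSP70, had a log2 fold change of −0.29 (standard error 0.08) and −0.24 without them. WT replicate 5, at 426 CPM, lay far above the other WT libraries, which ran from 288 to 349 CPM, and mutant libraries were at 221 to 311 CPM. Ribosomal protein genes have many processed pseudogenes, and reads could be split or lost among them.

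Chromatin modifiers lay on the other side. Of 117 chromatin modifier genes 50 were higher and 2 lower (42.7% and 1.71%, beside 12.2% and 12% of all genes), with a median log2 fold change of 0.17. Without WT replicates 3 and 5 it was 29 and 1 (median 0.09), beside 7.0% and 3.79% of all genes. With the offset it was 26 and 6 (median 0.06), beside 10.2% and 11.4% of all genes. With 1 surrogate variable it was 7 and 4 (median 0.01), beside 3.08% and 3.48%. The median exonic length was 8383 bp. The smallest p-values were those of Hdac6 (0.26), a cytoplasmic deacetylase, the histone methyltransferase Ezh1 (0.24), Arid4a (0.19) and the remodeler Chd6 (0.46), all log2 fold changes with adjusted p-values from 0.135 to 0.144 by edgeR.

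**Figure D4:**
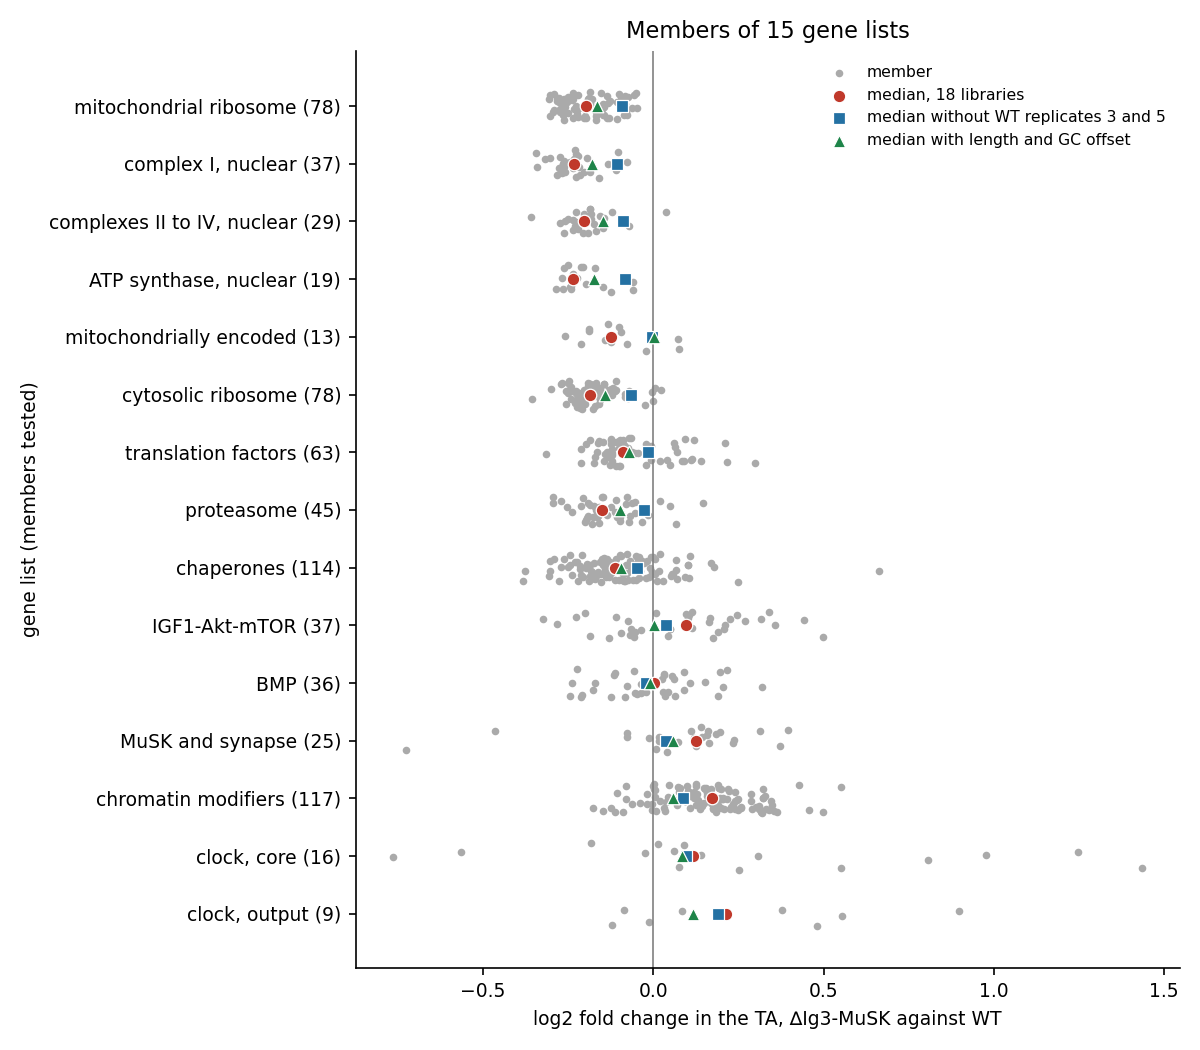
Log2 fold change in the TA (∆Ig3-MuSK against WT) of each tested member of 15 gene lists in grey, with the list's median over 18 libraries, without WT replicates 3 and 5, and with the length and GC offset. The nuclear-encoded mitochondrial lists sit at −0.23 to −0.20 and move to −0.11 to −0.08 without WT replicates 3 and 5, while the clock lists hold the widest spread.

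Among genes of MuSK signaling and the synapse, 25 were tested, with 3 higher and 1 lower by an unadjusted p under 0.05 (beside 12.2% and 12% of all genes). The lower gene was Musk itself. The higher ones were Agrn, the MuSK ligand agrin (log2 fold change 0.37), Lama5, a laminin chain (0.40), and the transcription factor Etv5 (0.16). Without WT replicates 3 and 5 these values were 0.22, 0.19 and 0.11, and the list had 1 higher and 2 lower, beside 7.0% and 3.79% of all genes. With the length and GC offset the list had 2 and 2, beside 10.2% and 11.4%. The part of gene length in the values of these genes was not tested beyond that offset. With 1 surrogate variable the list had 0 and 1, beside 3.08% and 3.48%, and the value of Lama5 was −0.01.

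Of 36 BMP pathway genes tested 4 were higher (11.1%) and 3 lower (8.33%), beside 12.2% and 12% of all genes, with a median of 0.00. Without WT replicates 3 and 5 it was 0 and 4, beside 7.0% and 3.79%, and with 1 surrogate variable 0 and 8, beside 3.08% and 3.48%. Fst, the secreted inhibitor follistatin, had a log2 fold change of −0.24 (standard error 0.09), the inhibitory SMAD Smad6 −0.23 (0.10) and Wnt11 −0.12 (0.06). The type II receptor Bmpr2 had 0.15 (0.06), and −0.02 with the length and GC offset.

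In the IGF1-Akt-mTOR list 9 of 37 genes were higher and 0 lower (24.3%; median 0.10), beside 12.2% and 12% of all genes. It was 6 and 0 without WT replicates 3 and 5 (median 0.04), beside 7.0% and 3.79%, and with 1 surrogate variable 4 and 1 (median −0.01). With the length and GC offset it was 5 and 1 (median 0.00), beside 10.2% and 11.4% of all genes. Gsk3b, a kinase inhibited by Akt, was at 34.6 to 53.6 CPM in WT and 47.5 to 63.9 CPM in ∆Ig3-MuSK (log2 fold change 0.32, standard error 0.08, adjusted p = 0.130 by edgeR). The receptors Igf1r and Insr had 0.44 and 0.27, and 0.30 and 0.18 without WT replicates 3 and 5. Their exons hold 16791 and 13746 bp, and the part of gene length in these values was not tested beyond the offset given for the list. Of 33 atrophy genes 6 were higher (18.2%, beside 12.2% of all genes, and 4 without WT replicates 3 and 5), among them Foxo3 (0.39), Fbxo21 (0.29) and Klf15 (0.24), and 1 lower (3.03%), the cell-cycle inhibitor Cdkn1a (−0.43).

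Fiber-type genes overlapped between the genotypes. Of 12 fast-fiber genes 1 was higher, Mybpc2 (log2 fold change 0.22), and 2 lower, Pvalb (−0.22) and Casq1 (−0.15), and without WT replicates 3 and 5 none passed. Of 12 slow-fiber genes 1 was higher, Myh7b (0.42). These counts are 8.33% and 16.7% of the fast and 8.33% and 0.0% of the slow genes, beside 12.2% and 12% of all genes. Ttn, the giant sarcomere protein titin, ran from 1396 to 5362 CPM in WT, with WT replicate 3 the lowest, and from 3711 to 6883 CPM in ∆Ig3-MuSK. Its log2 fold change was 0.62 (standard error 0.19), 0.46 without WT replicates 3 and 5, and 0.16 with the length offset for its 116825 bp of exon.

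Other cell types of the muscle were followed by their markers. In bulk tissue, fewer cells of a type and less RNA per cell cannot be told apart. The summed levels overlapped between the genotypes for each of 13 marker lists, and none differed at an exact permutation p under 0.05, the smallest being that of the 12 endothelial markers (371 to 485 CPM in WT, 442 to 488 CPM in ∆Ig3-MuSK; exact permutation test, p = 0.0745, 0.349 adjusted over 19 measures). The marker counts that follow stand beside 12.2% of all genes higher and 12% lower. Of the 12 endothelial markers, Vwf (0.42), Flt1 (0.36) and Tie1 (0.15) were higher and Emcn (−0.21) lower at an unadjusted p under 0.05. Of 8 tendon markers Tnmd (−0.56), Scx (−0.43) and Kera (−0.45) were lower, and 0 of 8 without WT replicates 3 and 5, where the median log2 fold change was −0.23 in place of −0.27. Summed tendon markers were at 137 to 231 CPM in WT and 75.9 to 184 CPM in ∆Ig3-MuSK. Among 15 leukocyte markers Cd3e (−0.66), Lyz2 (−0.45) and Fcer1g (−0.32) were lower and the macrophage receptor Cd163 (0.48) higher, with sums of 87.4 to 170 and 76.9 to 146 CPM. Without WT replicates 3 and 5, 1 leukocyte marker was higher and 1 lower, and their median was −0.08 in place of −0.26. Of the endothelial markers 2 were then higher and 0 lower. These stand beside 7.0% of all genes higher and 3.79% lower. Immediate early genes, which respond to handling, had 1 lower of 26, Atf3 (−0.73). The part of other cell types in the results above was not tested.

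Whether the TA differences are different in the soleus was tested as an interaction of genotype and muscle across the 36 libraries. Of 20841 genes, 0 had an adjusted interaction p under 0.05 in edgeR's quasi-likelihood test (0.0%), and 5193 (24.9%) had an unadjusted p under 0.05. In the soleus itself 18.5% of 19439 genes had an unadjusted p under 0.05. DESeq2 called 1049 genes for the same term, and limma-voom with the label number as a random block called 9. The libraries of the TA and the soleus share 8 label numbers in each genotype, which may mark the same animals. The edgeR interaction test did not use these label numbers.

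For the clock genes the muscles stood close. Dbp had log2 fold changes of 0.90 (standard error 0.11) in the TA and 1.23 (0.19) in the soleus, Per2 of 1.44 and 1.42, Ciart of 1.25 and 1.65, and Arntl of −0.57 and −0.78. Their unadjusted interaction p-values by edgeR were 0.136, 0.978, 0.283 and 0.362, which does not show that the muscles act alike. Of 16 core clock genes 1 had an unadjusted interaction p under 0.05, Nr1d2 (0.25 and 0.47), beside 24.9% of all genes. For Musk the differences were −0.46 and −0.44 (difference −0.04, standard error 0.18).

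Several of the leading TA genes had values near 0 in the soleus. Enho was at −0.46 (0.08) in the TA and −0.05 (0.08) in the soleus, Apobec3 at 0.51 (0.09) and 0.04 (0.09), and Cdc25b at 0.47 (0.09) and −0.02 (0.09). Their interaction terms were −0.42, 0.46 and 0.48, with unadjusted p-values of 0.000938, 0.00102 and 0.000669 and adjusted p-values of 0.102, 0.102 and 0.0992 by edgeR. None passed the adjustment in edgeR. The mitochondrial ribosome genes had a median of −0.20 in the TA and 0.04 in the soleus, with 60 of 78 at an unadjusted interaction p under 0.05. Complex I genes had −0.23 and 0.05, with 33 of 37, beside 24.9% of all genes. The length gradient also ran the other way in the soleus, from a median of 0.04 in the shortest bin of genes to −0.02 in the longest, and these comparisons include WT TA replicates 3 and 5.

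**Figure D5:**
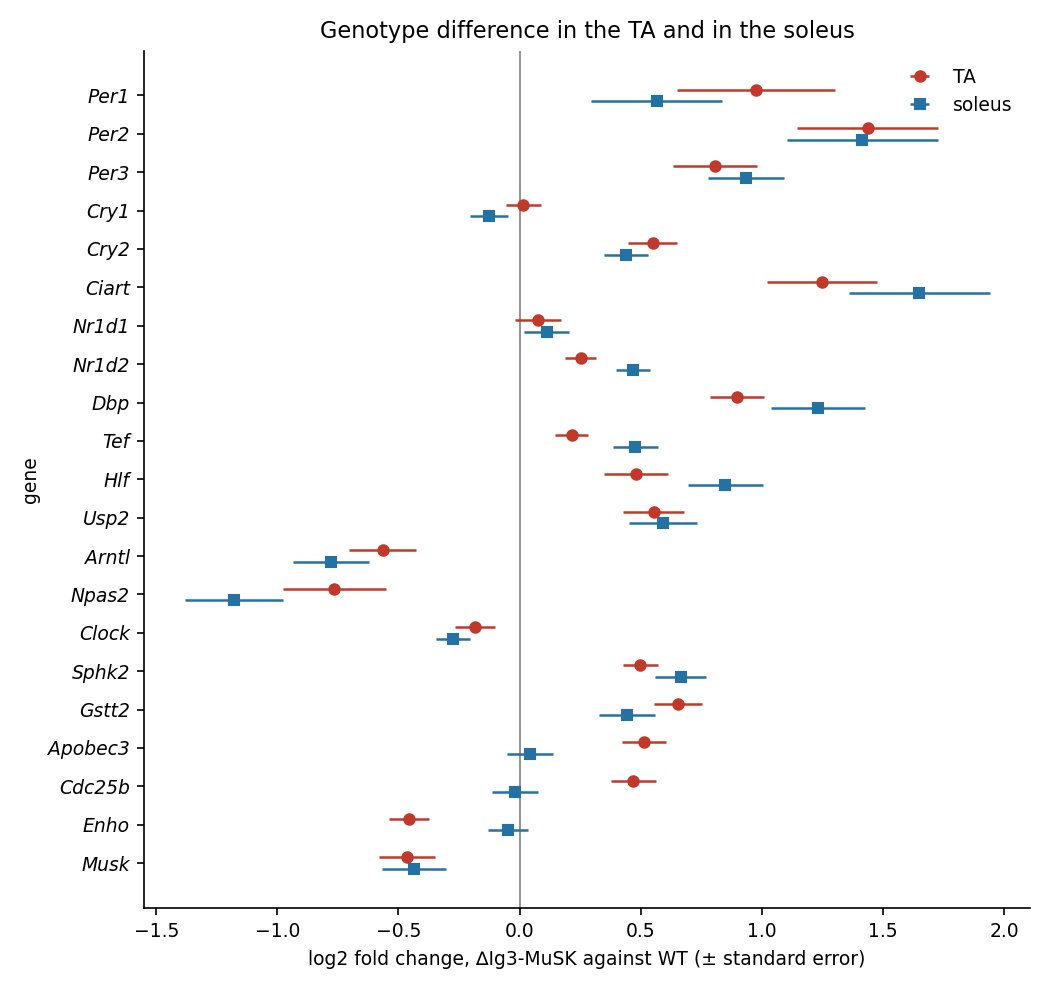
Log2 fold change (∆Ig3-MuSK against WT) with its standard error for 21 genes, TA in red circles and soleus in blue squares (18 libraries each). Clock genes lie on the same side in the muscles, other than Cry1 at 0.01 and −0.13, while Apobec3, Cdc25b and Enho lie at 0.51, 0.47 and −0.46 in the TA and near 0 in the soleus. No interaction passed adjustment in edgeR, while DESeq2 called 1049 and limma-voom with a random block 9.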

How the data were processed

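Total RNA from whole TA muscles in RNAlater was made into non-stranded libraries. The authors trimmed reads with Trimmomatic, aligned them to GRCm38 (mm10) using GSNAP and obtained gene counts from HTSeq (htseq-count); versions, annotation and counting mode are not given in the sources used here. The deposited TA table holds raw counts, whole numbers without normalization, for 51912 Ensembl IDs, of which 51719 matched a symbol and coordinates in GENCODE vM21. Replicate numbers are those of the labels. Numbers shared by WT and ∆Ig3-MuSK libraries belong to different animals, and 0 columns of other samples were present. No library was a copy of another (153 pairs, smallest chi-square per degree of freedom 12.2).

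The filter on low values was filterByExpr (count 10, total 15), libraries were scaled with TMM factors, and genes were tested with edgeR 4.0.16 (glmQLFit, glmQLFTest) in R 4.3.3, without covariates, on the 18 TA libraries, and calls needed a Benjamini-Hochberg adjusted p under 0.05 and a 1.2-fold change, the limits the study used with DESeq2. CPM values use the TMM factors. The interaction was fitted over 36 libraries. Library measures were compared by exact permutation over 48620 splits, 11440 without WT replicates 3 and 5. The length contrast used log2(CPM + 0.05).

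Alternatives were DESeq2 1.42.0 (also with 0.5 CPM in at least 1 library), limma-voom with quality weights (limma 3.58.1), robust fitting, RLE and upper-quartile factors, no filter, 10 counts in every library, no fold minimum, an adjusted p under 0.10, a fit over 36 libraries, a replicate block, sva 3.50.0 with 1 surrogate variable, a lowess (span 0.3) on exonic length and GC content as an offset, and each library left out. Fits without WT replicates 3 and 5 were chosen after seeing the data. Fits were tested on simulated counts.

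Named genes are Musk, Dbp, Gstt2 and Enho, all called genes, the 10 smallest p-values at 1.2-fold in each direction (leaving out Gm and Rik symbols), and in each list the called members and up to 4 with the smallest p. Others were named after their values were seen: further clock genes, Gstt1, Gstt3 and D930015M05Rik. The comparison, its marker genes and the lists were chosen with earlier results of these data known, so lists are described by counts and medians without a test. Replicates are separate animals, and depth left counting error small except for genes with few counts. Some genes and a gene list are not reported here.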

Additional observations from a re-analysis of the deposited data

Results flagged for a closer look

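In 104 groups of 9 libraries (47 genes and 5 library measures in each genotype), the highest or lowest library was far from the rest in 15, by Dixon's test at its 95% critical value; chance alone flags about 1 group in 20. Dbp stood out in the replicates numbered 7, at 76.1 CPM in WT, where the others reached 57.8, and at 63.3 CPM in ∆Ig3-MuSK, where the others began at 93.0.

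WT replicate 5 was far from the other WT libraries for Rhebl1 (1.91 CPM), Mrps31 (23.8 CPM), Ndufa11 (158 CPM), Rpl37 (14.8 CPM) and Hspa8 (426 CPM), each the highest, and for Nr1d1 (88.9 CPM), the lowest. ∆Ig3-MuSK replicate 3 was far from the other mutant libraries for Musk (3.83 CPM) and Mrps31 (15.8 CPM), the highest of their group, for its length contrast (−0.24, where the others began at 0.07) and for its PC1 score (15.4, where the others ended at −6.79).

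The remaining libraries were WT replicate 9 for Rflnb (29.5 CPM, others up to 23.1), WT replicate 6 for Per1 (59.5 CPM, others up to 26.3) and ∆Ig3-MuSK replicate 6 for Gstt1 (3.32 CPM, others from 4.05).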

How the results depend on the processing

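Beside 3 genes called higher and 0 lower, DESeq2 called 164 and 61, DESeq2 with the 0.5 CPM filter 172 and 66, limma-voom with quality weights 120 and 30, a fit over 36 libraries 485 and 207, upper-quartile factors 6 and 1, no filter 8 and 2, an adjusted p under 0.10 26 and 8, the length and GC offset 6 and 2, and 1 surrogate variable 2 and 0. Without WT replicates 3 and 5 it was 4 and 0, with the offset 4 and 2 and with DESeq2 35 and 15. The replicate block called 0 and 0, with adjusted p-values of 0.0951 for Dbp and 0.111 for Sphk2 and Gstt2. Numbers shared by the genotypes mark different animals. The deviations of same-numbered libraries correlated from −0.14 to 0.47, the highest for the replicates numbered 3. Whether same-numbered libraries were handled together was not tested.

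Leaving out 1 library gave 3 to 8 genes called higher and 0 to 3 lower, always with Dbp, Sphk2 and Gstt2. The total passed 1.5 times the 3 calls without WT replicates 1, 2, 4 or 6 (5 each) or 7 (6), and without ∆Ig3-MuSK replicates 1 or 7 (9 each), 3 (5) or 4 (6). Interaction calls were 0, 0 with the replicate block, 9 with the random block and 1049 with DESeq2. The replicate block joins libraries of the same replicate number across genotypes and muscles. Those often differ in label number, so this block is no pairing by animal. Dbp, Sphk2 and Gstt2 kept their direction in every fit, Gstt2 missing the limit with 1 surrogate variable as well (adjusted p = 0.052 by edgeR). Under the alternatives 1360 list medians moved by less than the spread between libraries and 26 by more, and no called gene changed direction. The cause of these shifts was not tested. Genes with few counts, such as Kif11 (18 to 56 counts per library), are limited by depth.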

Other observations

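Sterol, caveola and Hox genes were looked at after the gene values had been seen, and are given as values without a test. Of 23 genes of sterol synthesis and its control, 0 had higher and 7 lower values by an unadjusted p under 0.05 (median log2 fold change −0.08). The lower share was 30.4%, beside 12% of all genes. Without WT replicates 3 and 5 it was 0 and 8 (median −0.10), where 3.79% of all genes were lower. The lower sterol genes include Cyp51, Msmo1, Idi1 (−0.26), an isomerase of isoprenoid precursors, and Pmvk (−0.18), a kinase of the mevalonate pathway. Of 9 genes of caveolae, the membrane pits of the muscle fiber surface, 0 were higher and 3 lower (33.3%, beside 12% of all genes). It was also 0 and 3 without WT replicates 3 and 5, where 3.79% of all genes were lower. The lower genes were Cav3, the caveolin of muscle (−0.35, standard error 0.09, and −0.22 without those libraries), Cavin4 (−0.27) and Cavin3 (−0.23).

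Of 30 tested Hox genes, which record position along the body axis, 7 were higher and 2 lower (23.3% and 6.67%, beside 12.2% and 12% of all genes), and 3 and 1 of 31 without WT replicates 3 and 5, beside 7.0% and 3.79%. On the log2 scale Hoxb5 differed by 0.60 (standard error 0.12, adjusted p = 0.0788 by edgeR) and Hoxb3 by 0.45, with 0.63 and 0.39 without those libraries, and Hoxa10 had −0.25.

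By annotation class, TEC loci (transcripts awaiting experimental evidence) had a median log2 fold change of 0.20 and the 1854 processed pseudogenes of −0.13, beside 0.00 for 14523 protein-coding genes. Without WT replicates 3 and 5 these were 0.12, −0.04 and 0.00.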
